A study of Mus musculus with 48 samples.

Results

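The inferior olive of 5 week old Atxn1 154Q/2Q knock-in (KI) mice was compared with that of WT control littermates of the same age. The comparison holds 6 of the 48 RNA sequencing libraries of the study, 3 from KI and 3 from WT males on a pure C57BL/6J background, chosen by their labels for genotype, tissue and age. KI mice carry 1 Atxn1 allele with 154 glutamine codons and 1 with 2, so that polyglutamine-expanded mouse ataxin-1 is made under its own regulatory elements wherever the gene is active. The olive was cut from the brainstem by position between the pyramidal decussation and the pons, and the tissue therefore holds the neighbours of the olive as well as its neurons. For comparison, 3 further sets of 6 libraries were used, namely KI olive at 12 weeks, KI cerebellum at 5 weeks, and the olive of 5 week old ATXN1-82Q transgenic (Tg) mice, in which the Pcp2 promoter drives human ATXN1 with 82 glutamines in Purkinje cells on the FVB/NJ strain, each set with 3 WT controls of its own strain and age. Each of these sets was normalised on its own, so that levels are read only within a set.

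Spinocerebellar ataxia type 1 is caused by an expanded polyglutamine tract in ataxin-1, a nuclear protein that acts with the transcriptional repressor Capicua. The inferior olive is the source of the climbing fibres, glutamatergic axons that end on cerebellar Purkinje cells. Its neurons are coupled through gap junctions, oscillate in synchrony, and carry neuropeptides, of which corticotropin-releasing hormone is the best known. Levels below are FPKM, fragments scaled to the length of the transcript and the size of the library, in the order of library 1, 2 and 3 of a genotype. Differences are KI minus WT on log2(FPKM + 0.1), with standard errors, and a gene is said to rise or fall only at a Benjamini-Hochberg adjusted p below 0.05 by limma over all 13654 genes that reached a mean of 0.5 FPKM in both genotypes.

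All 9 olivary markers (Crh, Htr5b, Calb1, C1ql1, Pou4f1, Foxp2, Gjd2, Cacna1g and Slc17a6) passed the filter. Most of them are not particular to the olive, since 6 of the 9 also passed it in the cerebellum set. The summed level of the 9 there was 495, 570 and 550 FPKM in WT. Crh, Htr5b and Pou4f1 were barely expressed in that set, with WT means of 0.12, 0.12 and 0.20 FPKM. Judged by the value of a single fragment, WT library 3, the deepest, held 1.77 times the fragments of KI library 2, the shallowest, and between 12732 and 12872 named genes reached 1 FPKM in a library. The libraries did not group by genotype as a whole: Pearson's r over the genes tested was 0.985 to 0.995 within a genotype and 0.983 to 0.993 between genotypes. KI libraries 2 and 3 held far more choroid plexus RNA than the other libraries, as given below with the genes concerned. The libraries also differed in how their log2 deviation from the mean of all libraries of the comparison followed the GC content of the transcripts. The correlations of this deviation with GC content were 0.42, -0.60 and 0.38 in WT libraries 1, 2 and 3. They were 0.40, -0.11 and -0.32 in KI libraries 1, 2 and 3. The part that either of these played in the genotype differences was not tested, apart from the recalculations given with the results.

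At 5 weeks, 2 genes, of which Crh is described here, fell in KI mice and 0 rose, which is 0.0146% of the genes tested. At an unadjusted p below 0.05 by limma, 825 genes (6.04%) differed, of which 434 genes (3.18%) were higher and 391 (2.86%) lower in KI, where 682.7 genes in all would be reached if no gene differed. All KI libraries lay above all WT libraries for 715 genes (5.24%) and below them for 916 (6.71%). In simulated libraries of this comparison, 22% of genes with a log2 change of 0.5 and 91% of those with a change of 1 were called (13588 genes each), and 98.5% of those with a change of 2 (13584 genes). There, each gene varied independently of the others, and many genes, drawn from the more abundant ones, were changed together. Shifts shared by many genes of a library were not simulated, so these shares may overstate the recovery in the real libraries.

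Crh encodes corticotropin-releasing hormone, a neuropeptide of climbing fibres that modulates their action on Purkinje cells. It stood at 28.8, 25.7 and 20.8 FPKM in WT and at 7.14, 6.26 and 6.35 FPKM in KI. Every KI library was below every WT library by a wide margin, and the KI mean was 0.262 times the WT mean. The fall was 1.90 ± 0.12 on the log2 scale (a difference of -1.90, adjusted p = 0.0048, limma). The deposited entry covers chromosome 3 from 19692611 to 19699407 (mm10), a stretch of 6797 bases that includes the annotated gene of 1996 bases on the minus strand. Crh lost the call without KI library 2 (adjusted p = 0.0695), without KI library 3 (0.0563), without both (0.41) and with the choroid plexus level as a covariate (0.0799), while the difference stayed between -1.76 and -2.03 in all settings tried.

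Other genes of olivary neurons were lower in KI without passing the adjusted test. Of the 9 olivary markers, 7 were lower, 5 of them at an unadjusted p below 0.05, against 2.86% of all genes. Both counts include Crh. The median difference of the 9 was -0.30 against -0.01 over all genes tested. Htr5b, the serotonin receptor 5B, stood at 9.55, 6.81 and 7.10 FPKM in WT and 2.80, 3.32 and 3.00 FPKM in KI, a difference of -1.32 ± 0.14 (adjusted p = 0.0649). Pou4f1, a POU homeodomain transcription factor of brainstem and sensory neurons, gave 8.66, 7.53 and 6.91 FPKM in WT and 4.69, 4.39 and 4.62 FPKM in KI (-0.74 ± 0.10, adjusted p = 0.133). In both genes the groups did not overlap.

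Smaller differences were seen in the gap junction and calcium buffering genes of the olive. Gjd2 encodes connexin 36, which couples olivary neurons, and was at 13.4, 11.7 and 12.2 FPKM in WT and 9.68, 10.2 and 10.3 FPKM in KI (-0.30 ± 0.08, unadjusted p = 0.00492). Calb1, the calcium buffer calbindin, was at 32.8, 33.5 and 28.8 FPKM in WT and 24.3, 25.3 and 27.7 FPKM in KI (-0.30 ± 0.09, unadjusted p = 0.00874). The other markers overlapped between genotypes. C1ql1, the climbing fibre protein that binds a receptor on Purkinje cells, differed by -0.34 ± 0.17, or by -0.16 without WT library 1. Slc17a6, the vesicular glutamate transporter of brainstem neurons, differed by 0.02 ± 0.08, and Foxp2 by 0.12 ± 0.12. In bulk tissue, fewer cells of a type and less RNA per cell cannot be told apart, and the summed level of the 9 markers was 203 to 233 FPKM in WT and 170 to 176 FPKM in KI.

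**Figure D1:**
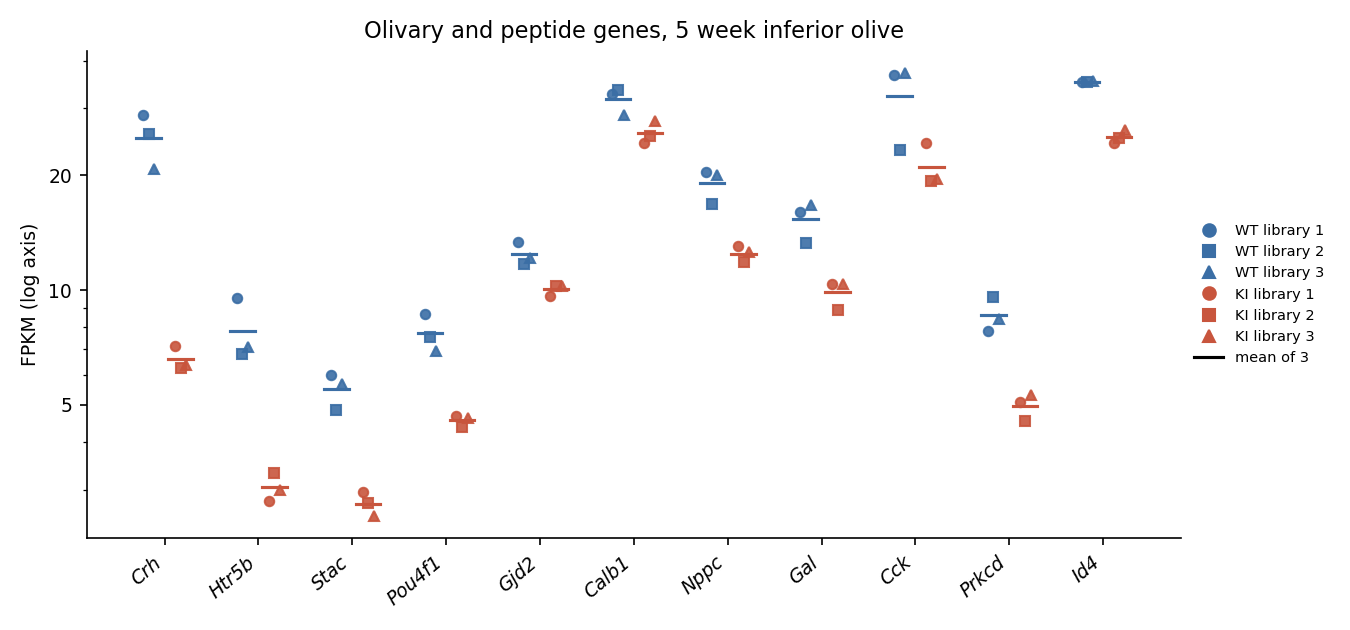
FPKM of 11 olivary, peptide and related genes in each library (log axis), WT in blue and KI in red, with the mean of 3 libraries as a bar. Crh, which passed the adjusted test, stands clear of the WT values in all 3 KI libraries, and Cck is the gene plotted whose groups overlap.

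Of 29 genes of olivary excitability that were tested, 23 were lower in KI, 3 of them at an unadjusted p below 0.05, with a median of -0.09, against 2.86% of all genes lower at it and 47.6% of all genes above 0. Ano2, a calcium-activated chloride channel, was at 3.67, 2.81 and 2.72 FPKM in WT and 2.07, 2.14 and 2.02 FPKM in KI (-0.53 ± 0.13, unadjusted p = 0.00389). Gjd2, described above, was another. Of 18 genes of the climbing fibre synapse, 2 were lower at that threshold, read against the same 2.86%. Among them was Cbln1, a synaptic organiser, at -0.32 ± 0.09 (unadjusted p = 0.00875). Cbln1 was also abundant in the cerebellum set, at 329, 376 and 412 FPKM in WT. Transcripts of cerebellar neurons were lower in the KI olive too, in all 8 tested, as given below. Their part in the Cbln1 difference was not tested.

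Several genes with no place in these lists were among the 10 lowest p-values in the downward direction. Stac, which encodes an adaptor of calcium channels, was at 5.99, 4.86 and 5.67 FPKM in WT and 2.95, 2.77 and 2.55 FPKM in KI (-0.97 ± 0.11, adjusted p = 0.072). Id4, an inhibitor of DNA-binding transcription factors, was at 35.1, 35.2 and 35.3 FPKM in WT and 24.3, 25.1 and 26.4 FPKM in KI (-0.48 ± 0.06, adjusted p = 0.133). Its WT libraries were almost identical and all KI libraries lay below them. Prkcd, a protein kinase C isoform, differed by -0.78 ± 0.10, Mdfi, an inhibitor of myogenic transcription factors, by -1.21 ± 0.17, and the homeobox gene Hoxd1 by -0.87 ± 0.15, each with separated groups and an adjusted p of 0.133 to 0.264.

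Neuropeptide precursors tended to be lower in KI, although only Crh passed the adjusted test. The list held 47 genes, 31 of which were tested, 14 lay below the filter and 2 are listed only in an entry shared with a neighbour. Of the 31, 26 were lower and 5 higher in KI, and 10 were lower and 0 higher at an unadjusted p below 0.05, against 2.86% of all genes lower at it and 47.6% of all genes above 0. The median difference of the list was -0.16 and the summed level 1297 to 1317 FPKM in WT and 1128 to 1168 FPKM in KI. Without KI libraries 2 and 3, which left 1 KI library that was assumed to vary like the others, 4 of the members were lower at that threshold.

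Nppc, the precursor of C-type natriuretic peptide, was at 20.4, 16.8 and 20.01 FPKM in WT and 13.04, 11.8 and 12.6 FPKM in KI (-0.60 ± 0.09, adjusted p = 0.197). Gal, the precursor of galanin, was at 16.0, 13.3 and 16.7 FPKM in WT and 10.4, 8.86 and 10.4 FPKM in KI (-0.63 ± 0.11, adjusted p = 0.278). Cck, the precursor of cholecystokinin, was at 36.8, 23.3 and 37.2 FPKM in WT and 24.4, 19.3 and 19.5 FPKM in KI (-0.60 ± 0.19, unadjusted p = 0.0123). The groups were apart for Nppc and Gal and overlapped for Cck, in which WT library 2 was low.

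The granins, abundant acidic proteins of dense-core granules, were lower by a smaller amount. Chga was at 143, 147 and 154 FPKM in WT and 123, 120 and 118 FPKM in KI (-0.29 ± 0.06, unadjusted p = 0.00196). Chgb was at 134, 160 and 137 FPKM in WT and 114, 106 and 115 FPKM in KI (-0.36 ± 0.09, unadjusted p = 0.00309). The remaining members at that threshold, named after their values were seen, were Penk (-0.21), Adcyap1 (-0.28), Trh (-0.48) and Pomc (-1.16), of which Pomc was at 5.18 FPKM in WT library 1 and at 0.81 to 1.88 FPKM in the other libraries. Without WT library 1 the difference was -0.29 for Trh and -0.69 for Pomc, and Pomc is also the member of the anterior pituitary list at that threshold. Scg2, the precursor with the highest level, was at 213 to 234 FPKM in WT and 224 to 243 FPKM in KI, and Sst, which encodes somatostatin, overlapped between genotypes. Of the 6 genes that process or package peptides, 1 was lower at an unadjusted p below 0.05, the convertase Pcsk2 (-0.19 ± 0.07), and of 37 tested neuropeptide receptors 1 was lower and 0 higher.

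Secretory granule genes often carry a cyclic AMP response element, and the 250 bases before the start of each precursor gene were searched for its full letters, TGACGTCA, which read the same on both strands. They were found in 4 of the 24 tested precursors with a promoter in the RefSeq table (16.7%), against 1.77% of all 27025 genes in it. The match of Chgb, the precursor with the smallest p among the 4, is shown with its surroundings on the plus strand at chr2:132781545-132781602 (GRCm38.p6), 5′ to 3′, with the matched letters in capitals. The other matched genes, Cartpt, Scg2 and Sst, did not reach an unadjusted p below 0.05 by limma. A match describes the letters, does not show that the element is bound, and is no support for the differences.

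Chgb: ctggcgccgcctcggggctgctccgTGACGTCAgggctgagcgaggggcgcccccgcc

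Atxn1 itself was slightly higher in KI. The transcript was at 5.98, 5.80 and 6.06 FPKM in WT and 7.13, 7.11 and 6.97 FPKM in KI, with no overlap and a spread within genotypes far smaller than the difference of 0.25 ± 0.07 (unadjusted p = 0.00877, adjusted p = 0.649). The deposited value covers both alleles, and the expanded allele could not be told from the other, so that this level is no check of the labels. Of the 14 tested genes for ataxin-1, its paralogs and its binding partners, Atxn1 was the member that reached an unadjusted p below 0.05. None of 7 Capicua target genes did.

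Interferon-inducible genes were higher in KI as a group, but none passed the adjusted test. Type I interferons act through a receptor and a transcription factor complex that binds the interferon-stimulated response element and switches on antiviral effectors. Of 30 interferon-induced effectors tested, 29 were higher in KI, 15 of them at an unadjusted p below 0.05 and 0 were lower at it, against 3.18% of all genes in the upward direction. Their median difference was 0.33. Likewise, all 8 interferon-inducible GTPases tested were higher (5 at that threshold, median 0.33), as were 8 of 10 genes of MHC class I presentation (3 at that threshold, median 0.27). The sensors and regulators of the pathway were different, with 13 of 17 higher, 0 at an unadjusted p below 0.05, and a median of 0.05. All KI libraries were above all WT libraries in 18 of the effectors, 5 of the GTPases and 3 of the MHC class I genes, against 5.24% of all genes. They were below in 0 of these genes, against 6.71% of all. Of the sensors and regulators, 3 were apart upward and 1 downward. The lists were known from earlier results to be higher in KI, so these counts are a description.

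Lgals3bp, a secreted glycoprotein, was at 6.66, 5.67 and 6.97 FPKM in WT and 10.1, 10.4 and 10.1 FPKM in KI (0.66 ± 0.09, adjusted p = 0.149). Bst2, or tetherin, which holds budding virus at the cell surface, was at 3.29, 2.94 and 2.89 FPKM in WT and 4.5, 5.15 and 5.27 FPKM in KI (0.69 ± 0.10, adjusted p = 0.173). Ifitm3, a membrane protein that blocks viral entry, was at 17.2, 14.3 and 16.5 FPKM in WT and 23.9, 24.3 and 21.6 FPKM in KI (0.54 ± 0.09, adjusted p = 0.264). All KI libraries were above all WT libraries in each of these genes.

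Xaf1, a pro-apoptotic factor, was at 1.62, 1.80 and 1.73 FPKM in WT and 3.16, 2.88 and 2.46 FPKM in KI (0.69 ± 0.12, unadjusted p = 0.000505). Ifi27 was at 18.4, 21.5 and 22.3 FPKM in WT and 27.9, 33.5 and 28.3 FPKM in KI (0.53 ± 0.10, unadjusted p = 0.000967). Usp18, which removes ISG15 from proteins and restrains interferon signalling, was at 0.98, 0.44 and 0.81 FPKM in WT and 1.70, 1.5 and 1.16 FPKM in KI (0.92 ± 0.27, unadjusted p = 0.009). The groups were apart in all 3, although Usp18 lay close to the filter. The largest difference in the list, noticed after the values were seen, was that of Ifi27l2a, at 0.65, 1.60 and 1.24 FPKM in WT and 4.39, 4.05 and 2.49 FPKM in KI (1.61 ± 0.32, unadjusted p = 0.00107). Ube2l6, the conjugating enzyme for ISG15, which is outside the list but among the 10 smallest p-values in the upward direction, was at 3.65, 3.15 and 3.54 FPKM in WT and 5.75, 4.87 and 5.54 FPKM in KI (0.63 ± 0.10, adjusted p = 0.254).

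In the MHC class I list, B2m, the invariant light chain, had the highest level. It stood at 112.0, 116.0 and 111.5 FPKM in WT and 151.8, 158.0 and 138.9 FPKM in KI (0.40 ± 0.07, adjusted p = 0.278), with the groups apart. H2-T23, a non-classical heavy chain, differed by 0.31 ± 0.08 (unadjusted p = 0.00434), and the immunoproteasome subunit Psmb9 by 0.64 ± 0.26 (unadjusted p = 0.0423) with overlapping groups, and by 0.37 without KI library 1 and 1.17 without KI libraries 2 and 3. Reads of MHC genes can be shared between related genes, so H2-T23 is uncertain.

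Among the GTPases, which attack the vacuoles of intracellular microbes, Iigp1 was at 0.84, 0.85 and 0.83 FPKM in WT and 1.29, 1.47 and 1.22 FPKM in KI (0.59 ± 0.13, unadjusted p = 0.00167). Igtp was at 2.19, 2.12 and 2.05 FPKM in WT and 2.73, 2.92 and 2.93 FPKM in KI (0.42 ± 0.09, unadjusted p = 0.00213). Irgm1, Irgm2 and Gbp7 differed by 0.32, 0.34 and 0.26, with all KI libraries above all WT libraries. These genes belong to families with near-identical copies, between which reads can be split.

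**Figure D2:**
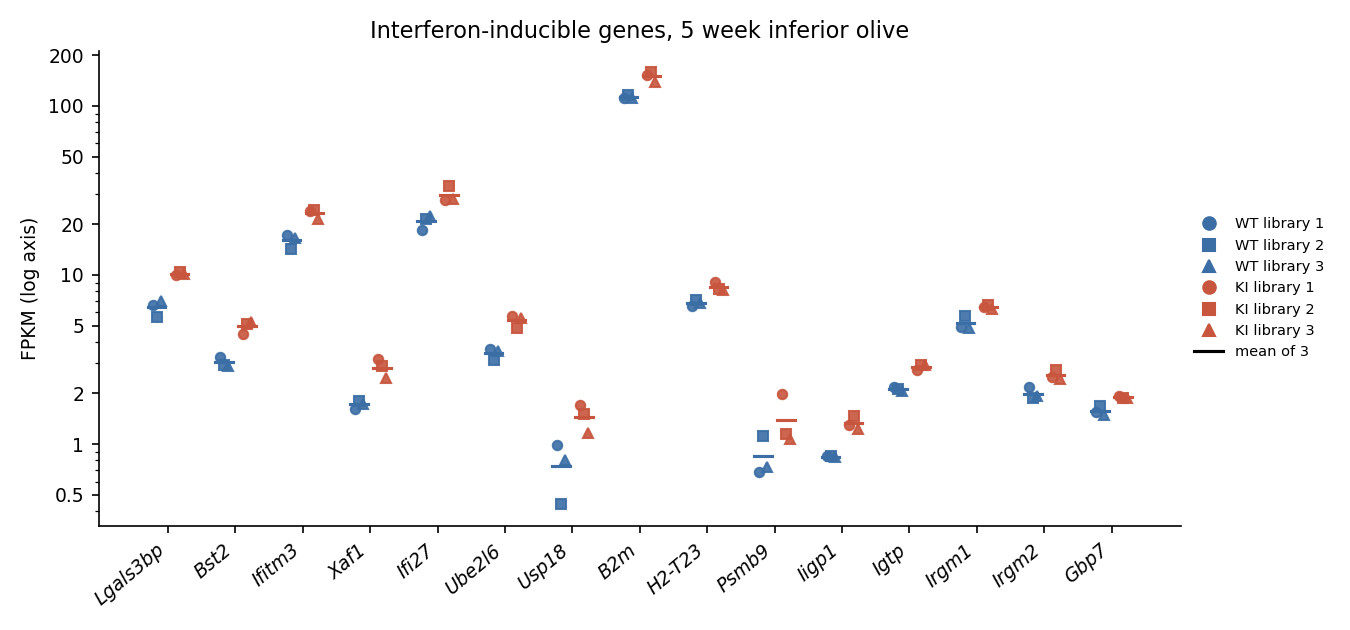
FPKM of 15 interferon-inducible genes in each library (log axis), WT in blue and KI in red, with the mean of 3 libraries as a bar. All KI libraries lie above all WT libraries in each gene plotted except Psmb9, and none of these genes passed the adjusted test. The genes were chosen in part for small p-values. Over the whole lists, this held for 18 of 30 effectors, 5 of 8 GTPases and 3 of 10 MHC class I genes, beside 5.24% of all genes.

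The counts were taken again without the libraries that stood apart. Without KI libraries 2 and 3, which leaves 1 KI library, 12 of the effectors were higher at an unadjusted p below 0.05, and 14 without these and WT library 2. With the choroid plexus level as a covariate the number was 13, and leaving out each library in turn it was 12 to 18. For the GTPases it was 1 without KI libraries 2 and 3, and 3 with the covariate or without KI library 2. For MHC class I it was 5 without KI library 3, 7 without KI libraries 2 and 3, and 8 with the covariate. Of the markers of microglia, which also express many of these genes, 9 of 15 were higher, 0 at an unadjusted p below 0.05 in either direction, with summed levels of 232 to 252 FPKM in WT and 237 to 261 FPKM in KI. The part of microglia, choroid plexus or meninges in the interferon differences was not tested.

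Some promoters of these genes hold the letters through which interferon is known to act. The lists are of genes known to respond to interferon, so that a match is no independent support. The core of the interferon-stimulated response element, searched as GAAA, 2 bases of any kind and GAAA on both strands with overlapping matches counted as 1 gene, lay within 250 bases before the start in 16 of the 53 tested members of the 4 interferon lists that have a promoter in the RefSeq table (30.2%), against 3.46% of all genes in it. It was in 6 of 6 GTPases, 7 of 23 effectors, 2 of 9 MHC class I genes and 1 of 15 sensors and regulators. Shown for the matched gene of highest level, the matched effector of smallest p and a GTPase are the windows at chr2:122147523-122147582 (plus strand), chr8:71537562-71537621 (minus strand) and chr11:58199497-58199555 (plus strand) of GRCm38.p6, each 5′ to 3′ on the strand of its gene with the matched letters in capitals. In Bst2 a second match overlaps the one shown.

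B2m: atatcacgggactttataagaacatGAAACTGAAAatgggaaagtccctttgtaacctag

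Bst2: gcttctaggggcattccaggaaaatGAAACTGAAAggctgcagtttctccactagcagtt

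Igtp: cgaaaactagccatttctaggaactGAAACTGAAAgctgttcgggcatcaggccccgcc

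Transcripts of tissues that border the dissection varied most between libraries. The choroid plexus lies in the fourth ventricle above the medulla, and the summed level of 28 choroid plexus genes, 27 of them with an entry of their own, was 243, 439 and 216 FPKM in WT and 227, 1964 and 2063 FPKM in KI. KI libraries 2 and 3 stood apart, while KI library 1 was like the WT libraries. Ttr, which encodes the thyroid hormone carrier transthyretin and defines this epithelium, was at 17.5, 157 and 5.32 FPKM in WT and 20.6, 1257 and 1324 FPKM in KI. WT library 2 was thus also far above the other WT libraries. All 18 tested members were higher in KI, but 0 were separated between the genotypes. Of the 18, 10 reached an unadjusted p below 0.05, against 3.18% of all genes higher at it. The number was 18 without KI library 1, 0 without KI library 2 or KI library 3, 3 without WT library 1 and 1 without WT library 3. Folr1, a folate receptor, differed by 2.82 ± 1.02 and Calml4 by 2.02 ± 0.67.

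Leptomeningeal genes, which mark the fibroblasts of the membrane over the brainstem, were higher in KI library 1 too. Of 20 tested, 19 were higher, 9 of them at an unadjusted p below 0.05, against 3.18% of all genes, and all KI libraries were above all WT libraries in 7, against 5.24% of all genes. The summed level was 153, 200 and 138 FPKM in WT and 211, 269 and 234 FPKM in KI. Col1a1, a chain of type I collagen, was at 3.39, 4.28 and 3.28 FPKM in WT and 5.90, 5.30 and 5.74 FPKM in KI (0.62 ± 0.12, unadjusted p = 0.000728). Col6a1 differed by 0.54 ± 0.12 and Igf2, a growth factor of these membranes and of the choroid plexus, by 0.98 ± 0.22, from 24.4, 29.7 and 20.1 FPKM in WT to 34.8, 61.5 and 52.0 FPKM in KI. Omd and Eln, extracellular matrix genes outside the list, were among the 10 smallest p-values in the upward direction, at 1.02 ± 0.16 and 0.62 ± 0.11. Without KI libraries 2 and 3, 4 members of the list were higher at that threshold, and without WT library 2, 15 were.

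Genes of some other neighbours were lower in KI at an unadjusted p below 0.05, as were 2.86% of all genes. Transcripts of cerebellar neurons were scarce, with summed levels of 15.6, 22.1 and 16.6 FPKM in WT and 9.63, 17.3 and 10.7 FPKM in KI, and all 8 tested were lower, 4 at an unadjusted p below 0.05 and 2 without WT library 2, WT library 3, KI library 1 or KI library 3. Car8, a carbonic anhydrase-related protein of Purkinje cells, differed by -0.69 ± 0.17 and Ppp1r17 by -1.05 ± 0.27. Of 7 genes of the serotonergic raphe, 5 were lower and 2 higher, with 2 lower and 0 higher at that threshold and a median of -0.15. Tph2, the rate-limiting enzyme of serotonin synthesis, was at 13.5, 13.2 and 10.4 FPKM in WT and 8.46, 8.75 and 9.25 FPKM in KI (-0.48 ± 0.11, unadjusted p = 0.00276), and the transporter Slc6a4 differed by -0.37 ± 0.15, or by -0.20 without WT library 1. Anterior pituitary transcripts, of which Gh was below the filter in KI, were present in the WT libraries, at 3.34, 0.99 and 36.2 FPKM for Gh against 0, 0.06 and 0.61 FPKM in KI. The part of dissection in any of these differences was not tested.

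**Figure D3:**
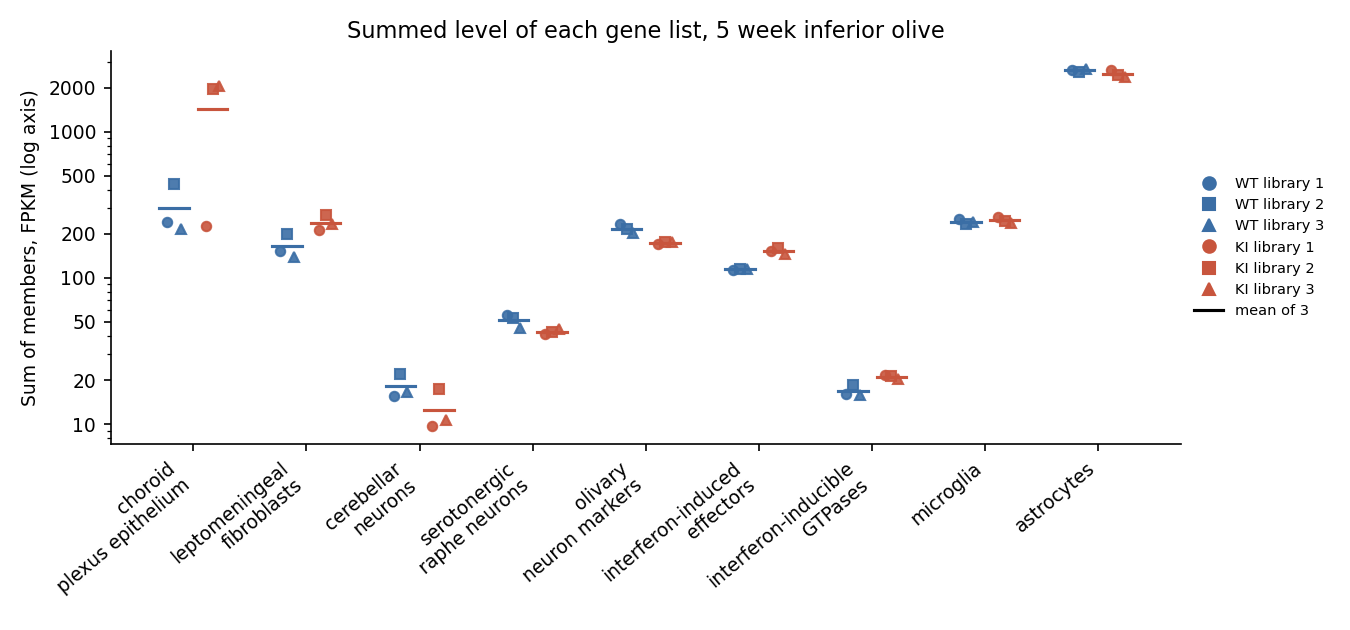
Summed FPKM of 9 gene lists in each library (log axis), WT in blue and KI in red, with the mean of 3 libraries as a bar. Choroid plexus genes stand apart in KI libraries 2 and 3. The sums of interferon effectors, GTPases and leptomeningeal genes lie above the WT sums in all 3 KI libraries. Those of olivary markers and serotonergic raphe genes lie below the WT sums in all 3.

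Wnt4, a secreted Wnt ligand, had the largest difference of any gene among the 10 smallest p-values in the upward direction. It was at 3.70, 1.26 and 1.18 FPKM in WT and 11.2, 20.4 and 16.2 FPKM in KI, with a KI mean 7.77 times the WT mean (3.05 ± 0.41, adjusted p = 0.133). The groups were far apart, but WT library 1 was well above the other WT libraries, and without it Wnt4 passed the adjusted test (adjusted p = 0.0038). Of 9 tested Wnt ligands it was the member at an unadjusted p below 0.05. Of 14 receptors 0 reached it, of 7 inhibitors 0, and of 8 Wnt target genes 1 was lower.

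The retinoid pathway held 4 of 17 tested members that were higher at an unadjusted p below 0.05, against 3.18% of all genes. Among them were the alcohol dehydrogenase Adh1 (0.89 ± 0.22), the retinol-binding protein Rbp4 (0.82 ± 0.22) and the retinol receptor Stra6 (0.57 ± 0.17). All 4 had separated groups, and KI library 1 was above the WT libraries in each. Of all genes, 5.24% had all KI libraries above all WT libraries. Stra6 is also known from meninges and choroid plexus, whose levels were higher in KI as given above, and their part in these values was not tested. Snhg3, a host gene of small nucleolar RNAs (0.51 ± 0.08), Stxbp2, a regulator of exocytosis (0.61 ± 0.10), and Gm20337 (1.17 ± 0.17) complete the 10 smallest p-values in the upward direction.

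Activity-regulated and housekeeping lists gave small differences. Their counts are read beside 2.86% of all genes lower and 3.18% higher at an unadjusted p below 0.05 by limma. Of all genes, 47.6% were above 0. Of 12 immediate early genes tested, 10 were lower and 5 reached an unadjusted p below 0.05, among them Fos (-0.30 ± 0.09) and Dusp1 (-0.37 ± 0.12, or -0.25 without WT library 1), with 2 without WT library 1, 8 without WT library 2, and 3 without WT library 3, KI library 2 or KI library 3. Of 23 glutamate receptor genes, 21 were lower, 5 at that threshold, led by Gria3 (-0.27 ± 0.09), but the number was 0 without KI library 1, 1 without WT library 3 or KI library 2, and 2 without WT library 1. Among 19 proteostasis genes, 18 were lower and 3 reached it, Hsph1 (-0.24 ± 0.08) with the smallest p. Cytosolic ribosomal proteins leaned the other way, with 49 of 68 higher, 10 higher and 2 lower at that threshold, and a median of 0.05. Rpl38 was at 501, 503 and 462 FPKM in WT and 876, 734 and 655 FPKM in KI (0.62 ± 0.11, unadjusted p = 0.000661). Nuclear-encoded respiratory chain genes were similar, with 62 of 83 higher, 10 higher and 1 lower at that threshold, and Ndufa3 at 0.46 ± 0.09. Ribosomal protein genes have many processed copies, and short abundant transcripts depend on how fragments were counted, so these values are uncertain.

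In the glial lists, 9 of 11 astrocyte and 12 of 18 oligodendrocyte lineage genes were lower and 9 of 15 microglia genes higher. Of all these genes, 0 reached an unadjusted p below 0.05 by limma in either direction, and the medians were -0.06, -0.04 and 0.05. Nor did any of 20 cholesterol synthesis genes, 12 of which were lower, or of 12 hindbrain Hox genes, 9 of which were higher with a median of 0.09. In the ependymal list, the cilia genes Ccdc153 (-1.40 ± 0.32) and Tmem212 (-0.82 ± 0.24) were lower with separated groups, while Mlf1, named after its value was seen, was higher with overlapping groups (0.70).

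**Figure D4:**
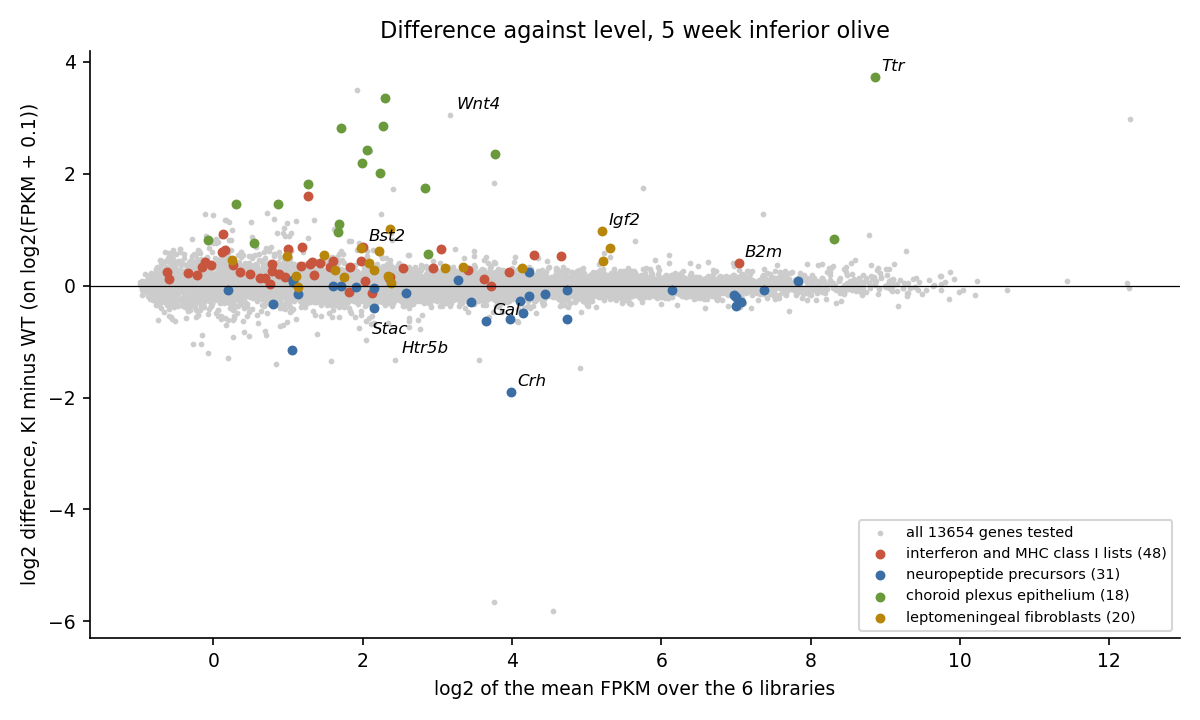
Difference between KI and WT (vertical axis, on log2(FPKM + 0.1)) against the log2 of the mean FPKM over the 6 libraries (horizontal axis) for the 13654 genes tested, with 4 sets of genes in colour. Choroid plexus genes spread upward to Ttr, the interferon and MHC class I genes lie mostly above 0, and Crh lies lowest among the neuropeptide precursors.

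Genes under the filter in one genotype were given no test. Of these, 28 were below 0.5 FPKM in WT and at 1 FPKM or more in KI, and 11 were the reverse. Apart from Gh, the 5 with the largest difference in each direction were microRNA or small nucleolar RNA genes above 0 in 1 or 2 libraries. Among the others higher in KI, the choroid plexus genes Otx2, Slc4a5, Cldn2 and Tmem72 were at 2.77 to 4.11 FPKM in KI libraries 2 and 3 and below 1 FPKM elsewhere.

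To ask whether the differences were also present at a later age, the same genes were read in the 12 week olive, in which 1.53% of genes were called. Of the 391 genes lower at 5 weeks at an unadjusted p below 0.05, 380 were tested at 12 weeks and 149 of these (39.2%) were lower there at the same threshold, beside 8.58% of all genes. Of the 434 higher at 5 weeks, 411 were tested and 65 (15.8%) were higher at 12 weeks, beside 4.73% of all genes. In the opposite direction the shares were 1.05% and 4.62%. Crh differed by -2.03 ± 0.11 at 12 weeks (adjusted p = 0.000759), and Htr5b, Stac, Pou4f1, Nppc, Cck and Tph2 also fell there. None of 13241 genes differed between the ages at an adjusted p below 0.05 by the limma interaction term, and 672 (5.08%) did at an unadjusted p below 0.05.

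Interferon-inducible genes were higher at both ages, in more members at 12 weeks. At 12 weeks 24 of 28 tested effectors, 8 of 8 GTPases and 10 of 10 MHC class I genes were higher at an unadjusted p below 0.05, with medians of 0.45, 0.45 and 0.36. Of all genes, 4.73% were higher at that threshold at 12 weeks and 3.18% at 5 weeks. The difference between the ages was not tested for the lists. Irf7, the regulator that amplifies the interferon response, was at 1.29, 1.14 and 1.37 FPKM in WT and 1.91, 1.38 and 1.45 FPKM in KI at 5 weeks (0.29 ± 0.15, or 0.16 without KI library 1) and differed by 1.34 ± 0.13 at 12 weeks. The difference between the ages, at -1.05 ± 0.20, had an unadjusted p of 0.00024 and an adjusted p of 0.474. Wnt4 and Rpl38 differed at 12 weeks by 0.14 ± 0.37 and -0.05 ± 0.04, but neither interaction passed the adjusted test (both adjusted p = 0.474). For choroid plexus genes, 27 of 27 had a lower KI mean at 12 weeks, with 0 at an unadjusted p below 0.05 and summed levels of 5753, 1283 and 3392 FPKM in WT and 3542, 2589 and 189 FPKM in KI, so that KI library 3 was low and the other KI libraries lay within the WT range. The leptomeningeal genes gave a median of 0.10 at that age.

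In the olive of 5 week old Tg mice, whose transgene is driven in Purkinje cells, 0 of 13708 genes were called by limma, with 560 higher and 342 lower at an unadjusted p below 0.05. Crh was at 17.4, 17.1 and 18.6 FPKM in WT and 13.1, 19.2 and 22.4 FPKM in Tg (0.01 ± 0.16). By the interaction term, the difference of the genotype effects, KI minus Tg, was -1.91 ± 0.23 for Crh (adjusted p = 0.0336) and -0.63 ± 0.08 for Id4 (adjusted p = 0.0345), which were the 2 genes called of 13102 (0.0153%), beside 724 (5.53%) at an unadjusted p below 0.05. Model and strain cannot be told apart in this term. Both calls were lost, among other settings, when KI library 2 or 3 of the olive was left out (adjusted p of 0.184 and 0.0564 for each gene). Of the genes lower in KI, 4.99% were lower in Tg at an unadjusted p below 0.05 beside 2.49% of all genes. Of the genes higher in KI, 21.6% were higher in Tg beside 4.09% of all. In Tg, choroid plexus genes were higher in 25 of 27 and leptomeningeal genes in 18 of 21 at that threshold, and Igf2 (0.79 ± 0.22), Col1a1 (0.62 ± 0.17) and Eln (0.48) were higher. Of 24 interferon effectors tested in Tg, 17 were higher, 4 of them at that threshold, with a median of 0.05. Of 53 tested members of the 4 interferon lists, 39 were higher, with 9 higher and 0 lower at that threshold, beside the same 4.09% of all genes.

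In the cerebellum of 5 week old KI mice and their WT controls, Crh, Htr5b and Pou4f1 were barely expressed and were not tested. Crh stood at 0.12 ± 0.08 FPKM in WT (SD, n = 3). Of the 9 olivary markers 6 were tested there, and the summed level of the 9 was 495, 570 and 550 FPKM in WT. In this tissue 1 of 13341 genes was called (0.0075%). Whether the cerebella and olives came from the same mice is not stated in the labels. Of the genes lower in the olive 6.07% were lower in the cerebellum at an unadjusted p below 0.05, beside 2.38% of all genes, and of the higher genes 2.52% were higher beside 1.33%. Of 28 interferon effectors 24 were higher, 3 at that threshold, with a median of 0.24. In Lgals3bp, Ifi27, Bst2 and Ifitm3, only KI library 1 of the cerebellum was above all WT libraries. Lgals3bp was at 4.92, 3.66 and 4.89 FPKM in WT and 9.49, 4.75 and 3.69 FPKM in KI. The GTPase Irgm1 differed by 0.46 (unadjusted p = 0.00181, limma), with all KI libraries above all WT libraries. None of 12618 genes differed between the tissues at an adjusted p below 0.05 by the limma interaction term, and 537 (4.26%) did at an unadjusted p below 0.05.

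**Figure D5:**
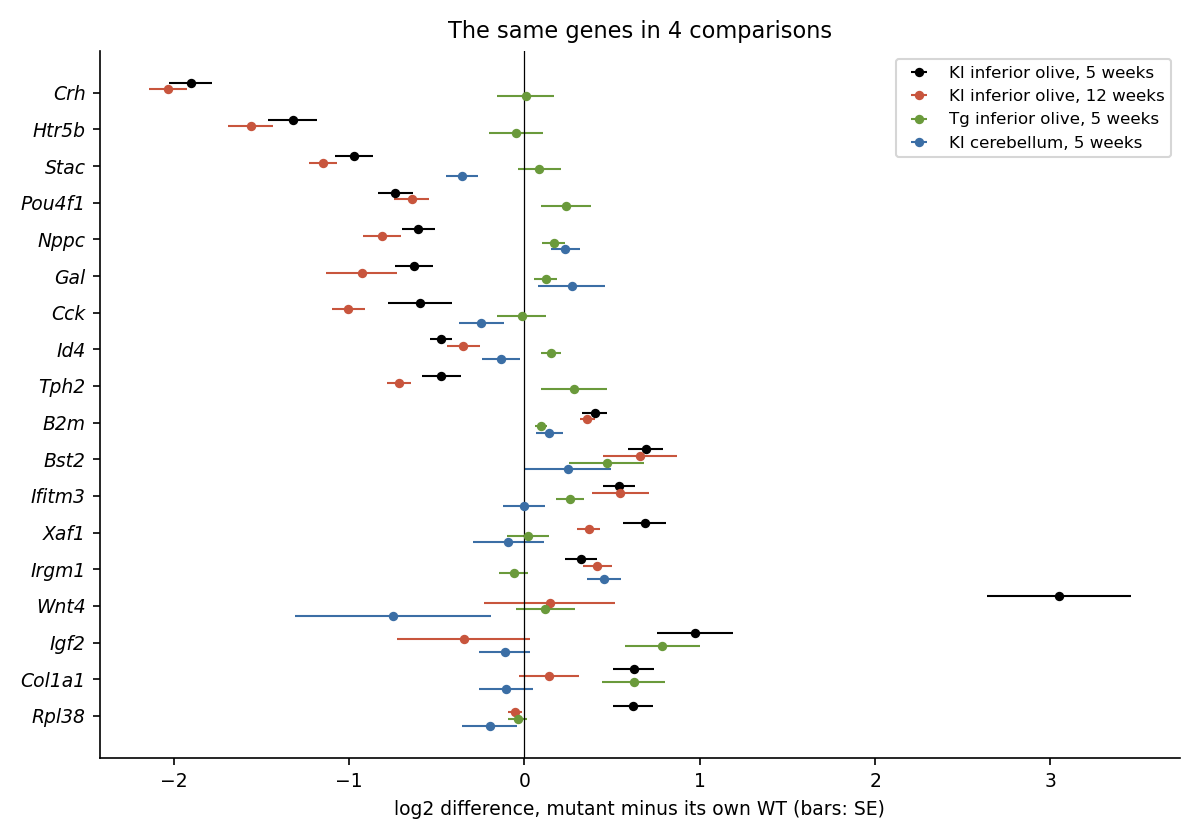
Log2 difference of mutant and WT libraries (horizontal axis, bars are standard errors) for 18 genes in the KI olive at 5 weeks (black) and 12 weeks (red), the Tg olive at 5 weeks (green) and the KI cerebellum at 5 weeks (blue), with points left out where a gene was not tested. Crh to Tph2 lie left of 0 at both ages of the KI olive and between -0.05 and 0.28 in Tg, and Wnt4 stands out at 5 weeks in the KI olive.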

How the data were processed

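The authors made poly-A selected, paired-end libraries, aligned reads to mm10 with TopHat2 2.1.0 and, with Cufflinks 2.2.1, deposited 1 FPKM value per entry and library, which Cuffnorm normalised over the 6 libraries of a table. The deposited columns of group averages, and of Cuffdiff fold changes, p-values and q-values, were not used. Of 26028 entries, 2385 (9.16%) carry no symbol and were left out, and a repeated symbol kept the entry of highest mean. Entries shared by neighbours carry several symbols and count for no list. Starts are printed with the first base as 1, since 37.8% of them then match an annotated transcript start (3.63% as deposited).

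Genes at a mean of 0.5 FPKM or more in both genotypes were tested by limma 3.58.1 (R 4.3.3, empirical Bayes with a mean-variance trend) on log2(FPKM + 0.1), which understates changes of low genes. Sets were compared by an interaction term over 12 libraries, with a term for the table, on genes at the filter in all 4 groups. Counts of fragments were not used, so the depth is known only as a ratio, and no interval for counting error is given. The design text calls the 3 libraries of a group biological replicates, and p-values measure the spread between them. The fits were tested on simulated data with fixed seeds.

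The genes compared, the 40 lists and the tests were chosen with earlier results of these data known. Named are genes called, the 10 smallest p-values in each direction among genes at a mean of 1 FPKM in the higher genotype, up to 4 members and the highest member of each list, Atxn1, 12 genes known from earlier results, and up to 5 untested genes in each direction. The mitochondrially encoded genes had no entry of their own. Alternatives were other pseudocounts, filters and scalings, array weights, covariates, a block for the replicate number, leaving out each library, and a spread shared with 12 weeks. Removal of a GC trend and leaving out several libraries were added after the data were seen. Promoter sequences are from RefSeq (GRCm38.p6), gene spans from GENCODE on the same build. A few genes that this rule names are not reported here.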

Additional observations from a re-analysis of the deposited data

Results flagged for a closer look

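The difference between KI and WT was unlike the difference between Tg and WT in the 5 week olive for 2 genes by the interaction term (limma, adjusted p below 0.05). Crh had a difference of -1.90 in KI and 0.01 in Tg, which gave -1.91 ± 0.23 between the models (adjusted p = 0.0336), and it was lower in 3 of 3 KI libraries than in any WT library of its table. Id4 had -0.48 in KI and 0.15 in Tg, which gave -0.63 ± 0.08 (adjusted p = 0.0345), and was lower in 3 of 3 KI libraries. The models differ in strain, transgene and cells that express it, and these cannot be told apart. Groups of 3 libraries are too small for a check of single outlying libraries.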

How the results depend on the processing

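The count of 2 genes called in KI against WT became 4 with quantile normalization, 7 with the replicate block, 6 with the GC trend removed, 30 with the spread shared with 12 weeks, 0 with the choroid plexus covariate, 0 without KI libraries 2 and 3, 403 without these and WT library 2, and 4624 with array weights, whose estimation stopped before converging, and 0 to 18 with each replicate left out. Crh was among the genes called in every setting that called any. For the difference between ages, 0 calls became 1136 with array weights and 1 with the covariate. For KI against Tg, 2 calls became 0 with no filter, 1 with upper quartile scaling, 1 with quantile normalization, 0 with no trend, 2350 with array weights, 1 with the replicate block and 7 with the GC trend removed, and 0 to 8 with each replicate left out. For olive against cerebellum, 0 calls became 2265 with array weights and 1 with the GC trend removed, and 0 to 1 with each replicate left out. The cause of these shifts was not tested.

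Same-numbered libraries did not all deviate together (correlations of 0.22, 0.11 and -0.37 between genotypes), so the numbers are not taken to pair the animals. Of 1619 values of 82 genes under the alternatives, 11 turned in direction: Ttr (-0.51 with the covariate, -0.25 without KI libraries 2 and 3), Sst (0.094 and 0.042 in the same settings), and Slc17a6, which lay near 0 throughout (-0.12 and -0.10 in the same settings, -0.038 without WT library 2 as well, and -0.019 to 0.081 with each replicate left out).

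With 3 libraries a genotype, small changes pass the adjusted test rarely, and choroid plexus, meninges and GC differ between libraries.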

Other observations

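Markers of other neurons in the dissected tissue gave few members at an unadjusted p below 0.05. Of all genes, 2.86% were lower and 3.18% higher at it. All 7 cholinergic motor neuron genes tested were lower in KI, 1 of them at an unadjusted p below 0.05, with a median of -0.29 and summed levels of 74.2, 90.1 and 78.9 FPKM in WT and 71.2, 67.2 and 57.5 FPKM in KI. That member was Prph, the intermediate filament peripherin, at -0.36 ± 0.13 (unadjusted p = 0.0218, limma). Its difference was -0.22 without KI library 3 and -0.15 with the choroid plexus covariate. The same list was not particular to KI, since in the Tg olive at 5 weeks 7 of 7 were lower, with a median of -0.27. All 7 were at that threshold, beside 2.49% of all genes lower there. In the KI olive at 12 weeks 5 of 5 were lower, 0 at that threshold, beside 8.58% of all genes lower at that age. All 3 catecholamine neuron genes tested were lower in KI at 5 weeks too. Of 12 serotonin receptor genes, 8 were lower and Htr5b, already described, was the member at that threshold. Inhibitory neuron genes did not lean as far, with 3 of 4 lower, 0 at that threshold and a median of -0.08. Of 15 vascular genes, 5 were higher and 1 reached the threshold, the smooth muscle actin gene Acta2 (0.50 ± 0.16). Gabra6, a GABA receptor subunit of cerebellar granule cells, differed by -1.29 (unadjusted p = 0.0346) with overlapping groups, and by -0.37 to -1.79 over the alternatives.

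Among abundant short transcripts, the ribosomal protein genes Rps14 and Rps28 differed by 0.35 and 0.38 and the respiratory chain gene Ndufc1 by 0.30, in the direction of Rpl38 and Ndufa3. Isg15, an interferon-induced ubiquitin-like protein named after its values were seen, was at 2.97, 1.88 and 2.94 FPKM in WT and 3.56, 3.70 and 3.22 FPKM in KI (0.44, unadjusted p = 0.037, or 0.23 without WT library 2).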
